A study of Rattus norvegicus with 9 samples.

Results

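The S phase and DNA replication genes are a list of 44 genes that encode the parts of the replication machinery, from origin licensing to the handling of new chromatin. They were chosen by name, as the rows of the deposited count table whose gene symbol equals one on the list. All 44 were found among the 22324 genes of the table, and all 44 passed the filter on low counts that left 14956 genes for the tests. The smallest count of a listed gene in any library was 41.

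Primary nucleus pulposus cells of wild-type rats (genotype WT) were grown in medium with 10% serum, and their polyadenylated RNA was sequenced in 9 libraries, 3 in each of 3 groups. The nucleus pulposus is the soft centre of an intervertebral disc. NC carries no treatment label and is treated here as untreated cells because of its title and the series' design text, although the protocol text that describes doxorubicin stands on every sample. SEN cells are labelled as senescent after doxorubicin, a topoisomerase poison that breaks DNA. The protocol gives 200 nM for 24 h and then 6 days in new medium. BNPMT cells are labelled as the same doxorubicin senescence with an intervention named BNPMT, whose name, dose and timing the labels do not explain. Whether the replicates are separate cultures is not stated, and the p-values may therefore reflect technical spread alone, since they rest on how far these libraries differ.

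Replication starts from origins that are licensed before S phase, when the origin recognition complex together with Cdc6 and Cdt1 loads the MCM helicase onto DNA. Cyclin E with its kinase and the E2F transcription factors drive entry into S phase, Cdc45 and the GINS complex turn the loaded helicase on, and polymerases with the sliding clamp PCNA copy the DNA. Senescent cells have left the cell cycle for good, and cells of the adult nucleus pulposus divide little in the disc, but they do divide in serum-containing culture.

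Promoter sequence was available for 37 of the 44 genes, as the 250 bases before the annotated start in NCBI RefSeq, build GRCr8. The genes without a window were Orc1, Cdc6, Mcm4, Gins4, Rrm2, Ccne2 and E2f1. Windows of 8 genes are shown because the results turn on them. Slbp and Pcna had the largest rises in SEN among genes with a window, Gins3 the largest fall, and the MCM helicase genes, of which all 5 with a window are shown, were lower in BNPMT than in NC. Capitals mark the words searched for on both strands, which were the E2F words TTTCGCGC, TTTCCCGC, TTTGCCGC and TTTGGCGC, the CCAAT box (CCAAT) and the cell cycle homology region, CHR (TTTGAA). The strand is that of the gene, and each sequence ends at the base before its start.
Slbp, chr14:81295998-81296247, plus strand: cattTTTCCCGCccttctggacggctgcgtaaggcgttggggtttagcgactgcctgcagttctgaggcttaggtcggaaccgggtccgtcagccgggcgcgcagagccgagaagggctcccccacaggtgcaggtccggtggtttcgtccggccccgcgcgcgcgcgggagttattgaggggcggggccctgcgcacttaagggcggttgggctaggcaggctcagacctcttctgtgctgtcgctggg
Pcna, chr3:139955821-139956070, minus strand: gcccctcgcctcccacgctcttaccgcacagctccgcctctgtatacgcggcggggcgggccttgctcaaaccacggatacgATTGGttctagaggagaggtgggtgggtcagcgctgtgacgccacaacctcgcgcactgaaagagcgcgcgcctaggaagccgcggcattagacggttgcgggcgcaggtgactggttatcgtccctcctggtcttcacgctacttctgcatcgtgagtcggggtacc
Gins3, chr19:9434680-9434929, minus strand: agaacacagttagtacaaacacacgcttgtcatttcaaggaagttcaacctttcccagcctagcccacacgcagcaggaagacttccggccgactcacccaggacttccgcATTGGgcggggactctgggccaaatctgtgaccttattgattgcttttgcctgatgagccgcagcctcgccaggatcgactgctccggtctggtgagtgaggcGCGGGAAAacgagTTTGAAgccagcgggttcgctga
Mcm2, chr4:122918095-122918344, minus strand: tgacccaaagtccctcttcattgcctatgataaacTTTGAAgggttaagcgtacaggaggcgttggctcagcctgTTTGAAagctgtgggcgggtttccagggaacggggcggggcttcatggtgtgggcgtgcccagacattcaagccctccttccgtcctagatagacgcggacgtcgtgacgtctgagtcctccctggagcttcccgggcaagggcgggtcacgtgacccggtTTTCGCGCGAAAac
Mcm3, chr9:30733747-30733996, minus strand: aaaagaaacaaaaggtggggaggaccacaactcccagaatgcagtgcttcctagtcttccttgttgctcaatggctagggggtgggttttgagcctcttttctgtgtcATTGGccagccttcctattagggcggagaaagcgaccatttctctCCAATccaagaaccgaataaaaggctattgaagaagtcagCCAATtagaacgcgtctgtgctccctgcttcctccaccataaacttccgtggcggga
Mcm5, chr19:13488563-13488812, plus strand: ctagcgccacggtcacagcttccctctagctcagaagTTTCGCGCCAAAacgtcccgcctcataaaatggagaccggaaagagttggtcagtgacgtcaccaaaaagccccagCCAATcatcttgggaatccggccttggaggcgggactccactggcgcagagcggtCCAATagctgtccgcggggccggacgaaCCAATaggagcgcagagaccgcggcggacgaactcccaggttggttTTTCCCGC
Mcm6, chr13:42404353-42404602, minus strand: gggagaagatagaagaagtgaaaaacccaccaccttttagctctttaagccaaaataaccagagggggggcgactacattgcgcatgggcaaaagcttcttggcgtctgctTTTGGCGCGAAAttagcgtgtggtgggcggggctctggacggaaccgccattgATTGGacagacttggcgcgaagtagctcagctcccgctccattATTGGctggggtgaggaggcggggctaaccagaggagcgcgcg
Mcm7, chr12:22163179-22163428, minus strand: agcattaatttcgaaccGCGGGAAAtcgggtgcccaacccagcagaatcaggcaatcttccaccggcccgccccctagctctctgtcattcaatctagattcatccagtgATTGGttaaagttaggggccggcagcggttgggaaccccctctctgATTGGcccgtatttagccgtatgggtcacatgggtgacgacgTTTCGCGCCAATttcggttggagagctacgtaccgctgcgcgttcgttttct

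An E2F word stood in the windows of 10 of the 37 genes (27%), against 1.73% of all 33469 windows of that length in the table. The 10 were Mcm2, Mcm5, Mcm6, Mcm7, Gins1, Gins3, Pola1, Tyms, Uhrf1 and Slbp. A CCAAT box was found in 19 of the 37 (51.4%, against 34% of all windows), a CHR word in 4 (10.8% against 16.2%) and a match to the p53 half-site consensus in 2 (5.41% against 6.64%). These set shares of genes against shares of windows, and the 37 genes have 40 windows. Counted by window, the shares were 25% for E2F, 52.5% for the CCAAT box, 10% for CHR and 5% for the p53 half-site. Neighbouring or palindromic E2F words overlap: in Mcm2 the word TTTCGCGC begins 14 bases before the start and its reverse-strand match 10 bases before it. Of the 20 genes with a window that fell in SEN against NC, 6 held an E2F word, as did 1 of the 6 that rose. These are matches of letters and not measured binding sites.

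Levels are given as CPM, which is a count scaled to the library's total. Log2 changes are on the scale of TMM factors, which assume that most genes do not change, and adjusted p-values come from edgeR's quasi-likelihood F test with Benjamini-Hochberg adjustment over all 14956 genes, with a threshold of 0.05. Total counts were 31206834 to 41971877 per library. The mean TMM factor was 0.802 for the SEN libraries, 1.097 for NC and 1.136 for BNPMT, so the scale bears on comparisons with SEN. Scaling by total counts instead moved the median over all genes from -0.01 to -0.46 in SEN against NC, from 0.02 to 0.52 in BNPMT against SEN and from 0.00 to 0.06 in BNPMT against NC, and the change of each single gene moves by about as much. Within their groups the libraries SEN 1 and BNPMT 1 differed most from the other two, with deviations that followed transcript length (Spearman correlations of -0.42 and 0.51 across genes).

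The labelled cell type was checked against its markers. Acan and Col2a1, the main proteoglycan and collagen genes of the nucleus pulposus, had group means of 587 ± 10.4 and 4571 ± 119 CPM in NC, of 681 ± 34.5 and 6492 ± 84.3 CPM in SEN, and of 322 ± 31.4 and 1962 ± 87.1 CPM in BNPMT (SD, n = 3), whereas Krt18 and the notochord factor gene Tbxt were under 0.2 CPM in each group mean. The summed level of 15 nucleus pulposus and notochord markers lay at 5358 to 5633 CPM in NC, at 7328 to 7464 in SEN and at 2512 to 2749 in BNPMT. Of the 12 tested 8 were higher and 3 lower in SEN than in NC, and 1 was higher and 5 lower in BNPMT than in NC. For 12 annulus and fibroblast markers the sum lay at 43639 to 45248 CPM in NC, at 42166 to 42333 in SEN and at 20617 to 23819 in BNPMT, with 7 higher and 4 lower in SEN than in NC and 2 higher and 7 lower in BNPMT than in NC. Summed CPM of 12 smooth muscle and myofibroblast markers lay at 6744 to 6853 in NC, at 2477 to 2524 in SEN and at 4367 to 4482 in BNPMT, and 11 of the 12 were lower in SEN than in NC and 10 lower in BNPMT than in NC. The summed level of 9 macrophage and leukocyte markers lay at 11.8 to 13.2 CPM in NC, at 31.4 to 34.8 in SEN and at 16.9 to 19.2 in BNPMT. Of the 5 tested 3 were higher and 2 lower in SEN than in NC, and 1 was higher and 1 lower in BNPMT than in NC. The 9 endothelial markers summed were at 34.0 to 38.7 CPM over the 9 libraries. What part these markers have in the changes of replication genes was not tested. In bulk RNA, fewer cells in S phase and less RNA per cell cannot be told apart.

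In SEN the replication genes moved in both directions, as did the genes tested as a whole. Under TMM 11 of 44 were higher than in NC, 21 were lower and 12 did not pass the test. Over all genes tested 37.6% were higher and 38.5% lower. The median log2 change was -0.14 for the 44 genes and -0.01 for all genes. With total counts 6 were higher (24.5% of all genes) and 33 lower (56.9% of all genes). Called in the same direction on both scales were 6 higher (13.6%, against 24.5% of all genes) and 21 lower (47.7%, against 38.5%). The 6 higher genes were Slbp, Pcna, Ccne2, Ccne1, Mcm10 and E2f1. With each library's trend with transcript length taken out, 9 of the 44 genes were higher and 29 lower. Over all 14956 genes tested, 4693 were then higher and 7425 lower.

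The summed level of the 44 genes was 1499 to 1521.5 CPM in the NC libraries, 1631 to 1714 in SEN and 1301 to 1308 in BNPMT. Without Pcna, Slbp, Ccne1 and Ccne2, which were left out after their values were seen, the sum fell between 1333 and 1367 CPM in NC, between 841 and 869.9 in SEN and between 1147 and 1165 in BNPMT. In CPM the sum over the list was thus highest in SEN with those 4 genes and lowest in SEN without them. These sums are per total count and carry no TMM factor. The mean factor was 0.802 for SEN, 1.097 for NC and 1.136 for BNPMT. Sums on the TMM scale were not computed, so the order of the groups holds for CPM alone.

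**Figure D1:**
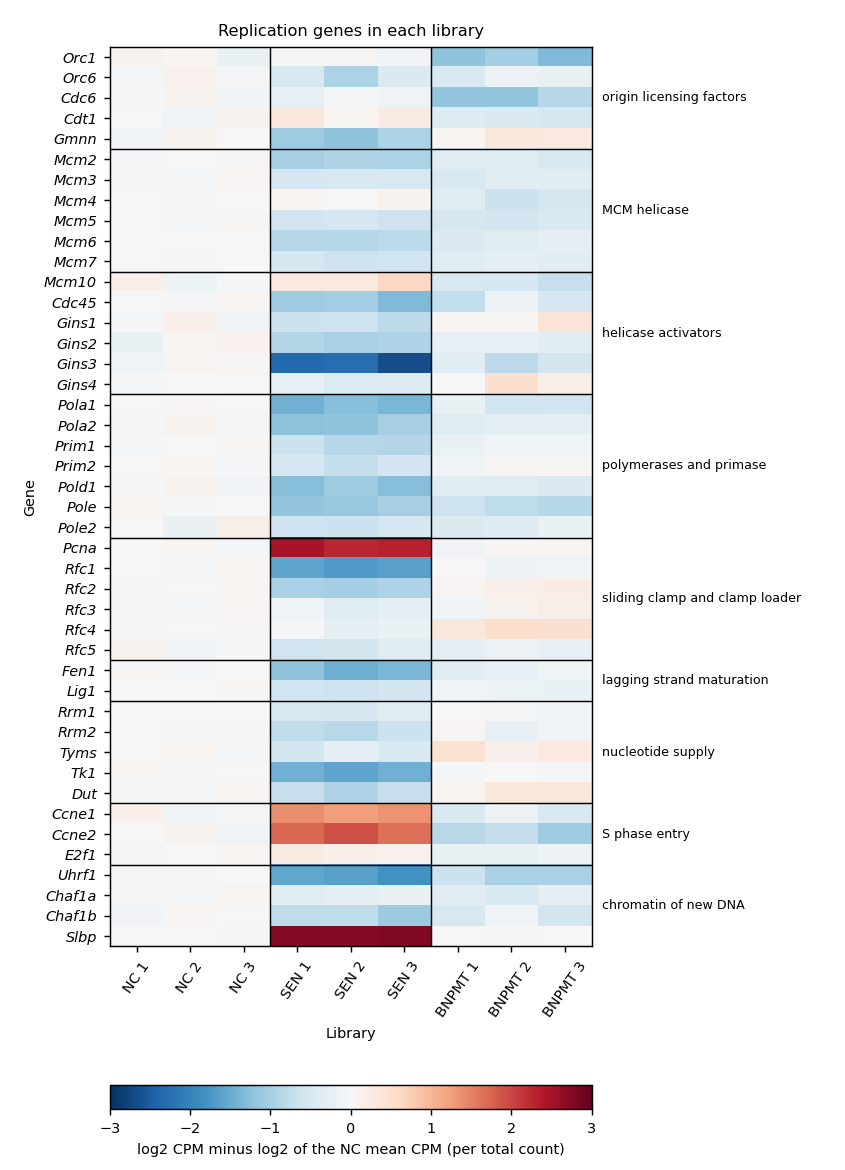
Level of each of the 44 replication genes (rows, grouped by role) in each of the 9 libraries (columns), as log2 CPM minus the log2 of the gene's mean CPM in NC. Red is above and blue below the NC mean: Slbp and Pcna are dark red in all 3 SEN libraries, Gins3 is dark blue there, and Orc1 and Cdc6 are blue in the BNPMT libraries.

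The counts by role that follow for SEN are to be read against the shares over all genes. These were 37.6% higher and 38.5% lower under TMM, and 24.5% and 56.9% with total counts. The genes that drive entry into S phase were higher in SEN, 3 of 3. Ccne2, which encodes cyclin E2, the kinase partner at the start of S phase, was at 18.3, 19.6 and 17.0 CPM in the NC libraries, at 60.0, 69.6 and 57.8 in SEN and at 10.4, 11.1 and 8.67 in BNPMT. Every SEN library was above every NC library, and every BNPMT library was below them. The SEN mean was 3.41 times the NC mean, and the log2 change was 2.22 ± 0.10 (SE) by TMM (adjusted p = 1.18e-10) and 1.77 by total counts. Its span overlaps Ints8 in GRCr8, and reads of overlapping genes cannot be told apart unless the counting used strand, which is not given in the sources used here.

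Ccne1, the gene of cyclin E1, was at 22.1, 18.7 and 19.2 CPM in NC, at 52.4, 47.5 and 51.2 in SEN and at 14.5, 17.6 and 14.6 in BNPMT. The 3 groups did not overlap, with SEN highest and BNPMT lowest. Its log2 change in SEN was 1.79 ± 0.09 (adjusted p = 6.73e-10) and 1.33 with total counts. E2f1, the gene of an activating E2F factor, moved far less. It stood at 23.0, 23.9 and 25.3 CPM in NC, at 28.8, 26.8 and 26.2 in SEN and at 20.6, 20.7 and 21.8 in BNPMT. Its groups did not overlap either, but they were close, and its log2 change in SEN was 0.63 ± 0.07 by TMM (adjusted p = 1.73e-06) and 0.18 by total counts (adjusted p = 0.0274).

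Slbp had the largest change of the list. Its protein binds the stem-loop of histone mRNAs, which are made in S phase. Slbp was at 43.2, 43.3 and 41.7 CPM in NC, at 290.2, 284 and 291 in SEN and at 42.7, 41.7 and 43.1 in BNPMT. The NC and BNPMT libraries overlapped, and the SEN mean was 6.75 times the NC mean. The log2 change in SEN was 3.21 ± 0.05 (adjusted p = 5.99e-15) and 2.76 with total counts. Pcna, the sliding clamp, which is also a known p53 target, was at 80.3, 84.4 and 76.9 CPM in NC, at 447, 389 and 401 in SEN and at 75.1, 83.1 and 84.5 in BNPMT. Again SEN stood alone, at 5.12 times the NC mean, with a log2 change of 2.81 ± 0.07 (adjusted p = 6.71e-13) and 2.36 with total counts. Per transcript length Pcna had the highest level of the 44 genes in each group, with 69.4 ± 3.23 FPKM in NC, 69.7 ± 4.37 in BNPMT and 355 ± 26.2 in SEN (SD, n = 3). By that scale Slbp moved from place 8 in NC to place 2 in SEN, and Ccne2 from place 32 to place 8.

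**Figure D2:**
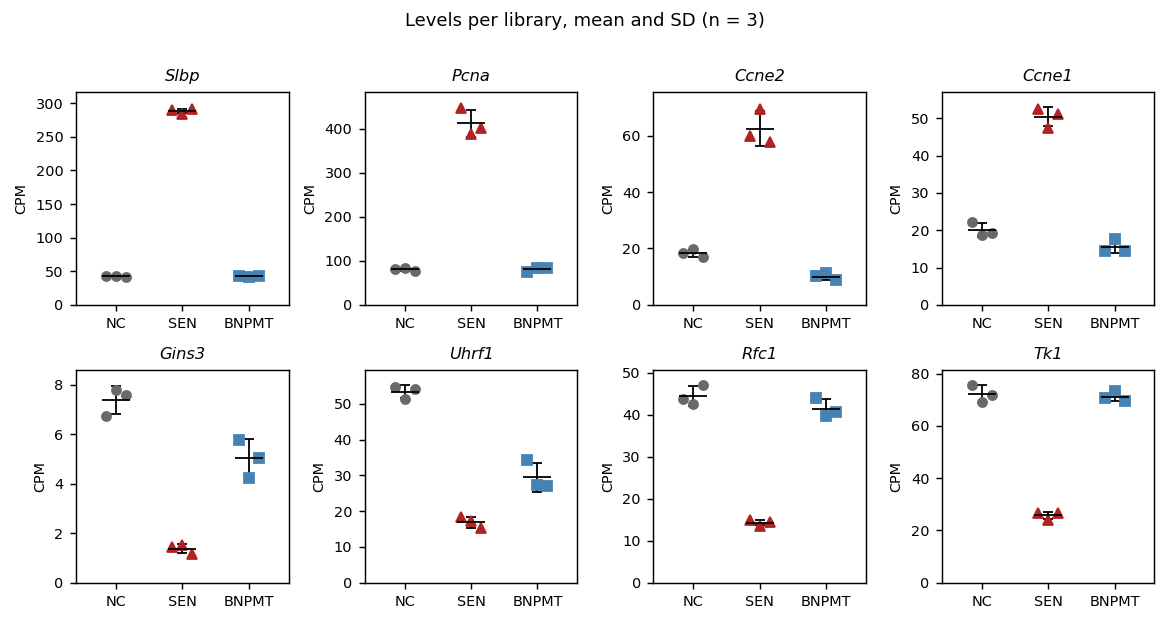
CPM in each library (symbols) with the mean and SD of 3 libraries (lines) for 4 genes with large rises and 4 with large falls in SEN, each panel with its own linear axis from 0. The SEN libraries lie apart from both other groups in all 8 panels. In Slbp, Pcna, Rfc1 and Tk1 the BNPMT libraries overlap NC, whereas in Ccne2, Ccne1, Gins3 and Uhrf1 they lie below NC.

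Origin licensing factors had no common direction in SEN. Under TMM 3 of 5 were higher (Orc1, Cdc6 and Cdt1), Gmnn was lower and Orc6 did not pass the test. With total counts none of the 5 was higher and 2 were lower (Orc6 and Gmnn). Orc1, a subunit of the origin recognition complex, was at 9.04, 8.79 and 7.33 CPM in NC, at 8.20, 8.62 and 7.97 in SEN and at 3.61, 4.13 and 3.34 in BNPMT. The NC and SEN libraries overlapped while all BNPMT libraries were lower. Its log2 change in SEN turned from 0.43 ± 0.12 by TMM (adjusted p = 0.00392) to -0.02 by total counts (adjusted p = 0.878).

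Cdc6, the loader that works with the origin recognition complex, was at 11.6, 12.9 and 11.4 CPM in NC, at 10.1, 11.6 and 11.0 in SEN and at 5.29, 5.24 and 6.60 in BNPMT. Here too NC and SEN overlapped and BNPMT was lower. The change in SEN was 0.31 ± 0.11 by TMM (adjusted p = 0.0161) and -0.14 by total counts (adjusted p = 0.248). The TMM call of Cdc6 ended without NC 1 (adjusted p = 0.0619), NC 3 (adjusted p = 0.0772) or SEN 2 (adjusted p = 0.0651), and with each library's trend with transcript length taken out (adjusted p = 0.136).

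Cdt1 encodes a licensing factor and Gmnn its inhibitor geminin. Cdt1 averaged 12.5 ± 1.08 CPM in NC and 14.5 ± 1.23 in SEN. By TMM its log2 change was 0.67 ± 0.09 (adjusted p = 1.94e-05), and by total counts it was 0.22 and not called (adjusted p = 0.0501). Gmnn fell from 10.5 ± 0.711 to 5.01 ± 0.438 CPM, with log2 changes of -0.61 by TMM (adjusted p = 0.00025) and -1.07 by total counts. Both levels are within a library, so their ratio needs no scaling between libraries.

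Of the MCM helicase genes, which encode a ring of 6 subunits, 3 were lower in SEN under TMM, 1 was higher and 2 did not pass the test. With total counts 5 of 6 were lower (56.9% of all genes). Mcm2 was at 85.9, 88.6 and 91.7 CPM in NC, at 44.5, 47.1 and 45.7 in SEN and at 70.4, 68.7 and 64.9 in BNPMT. In CPM these 3 groups were well apart. The log2 change of Mcm2 in SEN was -0.50 ± 0.06 by TMM (adjusted p = 1.67e-06) and -0.96 by total counts. From SEN to BNPMT, Mcm2 changed by 0.07 under TMM, which was not called (adjusted p = 0.272), and by 0.57 with total counts (adjusted p = 4.35e-07). Mcm6 fell as well (log2 change -0.38 ± 0.06, adjusted p = 3.43e-05). Mcm7 had a log2 change of -0.14 ± 0.06 (adjusted p = 0.0446). Its call ended without NC 1 (adjusted p = 0.0815), NC 3 (adjusted p = 0.0898), SEN 2 (adjusted p = 0.109) or SEN 3 (adjusted p = 0.0979), and also with DESeq2 size factors (adjusted p = 0.229), the DESeq2 Wald test (adjusted p = 0.249) or a filter of 1 CPM in 3 libraries (adjusted p = 0.128). Mcm3 and Mcm5 had log2 changes of -0.04 and -0.11 under TMM that did not pass the test and of -0.50 and -0.56 with total counts that did.

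Mcm4 alone of the ring genes was higher under TMM. It was at 83.4, 80.9 and 83.7 CPM in NC, at 86.4, 83.2 and 89.2 in SEN and at 64.4, 53.2 and 56.9 in BNPMT. In CPM the NC and SEN libraries overlapped. Its log2 change was 0.51 ± 0.06 by TMM (adjusted p = 5.62e-06), and by total counts it was 0.06 and not called (adjusted p = 0.413).

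**Figure D3:**
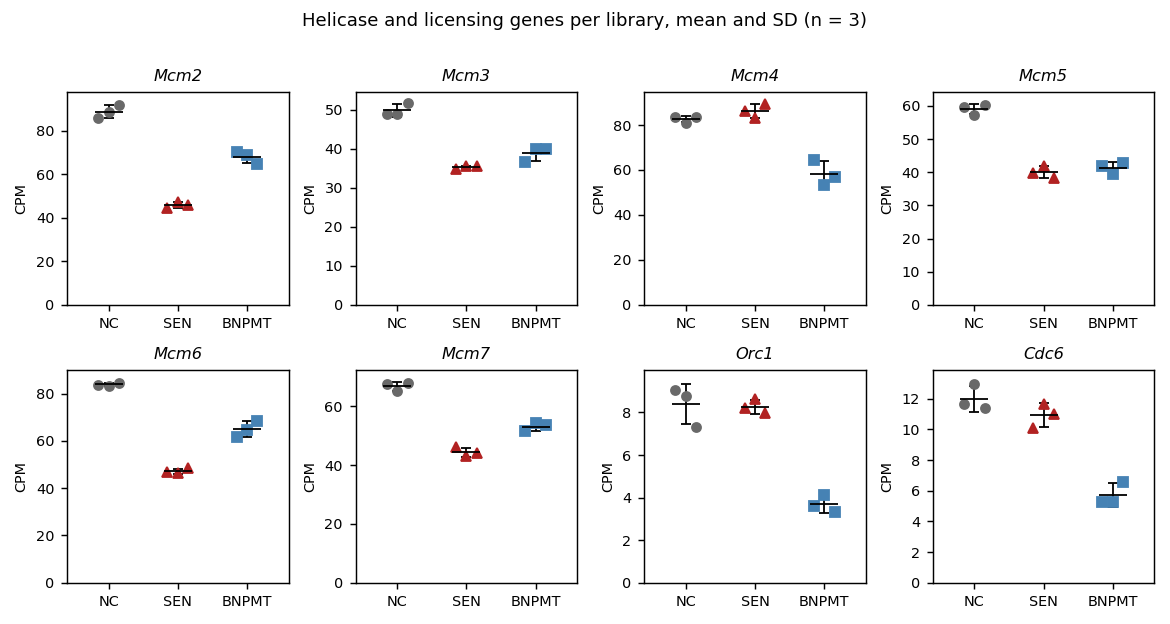
CPM in each library (symbols) with the mean and SD of 3 libraries (lines) for the 6 MCM helicase genes and the licensing genes Orc1 and Cdc6, each panel with its own linear axis from 0. All BNPMT libraries lie below all NC libraries in each of the 8 panels, while in Mcm4, Orc1 and Cdc6 the SEN libraries overlap NC.

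Among the 6 helicase activators 3 were lower in SEN under TMM, Mcm10 was higher and 2 did not pass the test. Gins3, a subunit of the GINS complex, had the largest fall of the 44 genes. It was at 6.72, 7.78 and 7.59 CPM in NC, at 1.46, 1.51 and 1.16 in SEN and at 5.79, 4.25 and 5.05 in BNPMT. The groups did not overlap, with SEN far below both others. Its log2 change in SEN was -1.97 ± 0.16 by TMM (adjusted p = 7.63e-08) and -2.42 by total counts. In SEN it had the lowest level per transcript length of the list, at 0.595 ± 0.0814 FPKM.

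The other GINS genes moved less. Gins4 was at 11.5, 11.9 and 11.8 CPM in NC, at 9.87, 8.81 and 8.88 in SEN and at 11.7, 16.3 and 13.5 in BNPMT, and its direction in SEN turned with the scale (by TMM 0.10, adjusted p = 0.44, but by total counts -0.35, adjusted p = 0.0125). Gins2, whose span overlaps Gse1 in GRCr8, fell by 0.47 (adjusted p = 0.00303) and Gins1 was not called at -0.24 (adjusted p = 0.129). Cdc45, the partner of GINS on the helicase, fell from 10.4 ± 0.328 CPM in NC to 4.69 ± 0.489 in SEN, a log2 change of -0.69 ± 0.15 (adjusted p = 0.000669). Mcm10, which helps start the helicase, rose from 13.9 ± 1.56 to 18.5 ± 2.44 CPM, with log2 changes of 0.87 ± 0.11 by TMM (adjusted p = 5.92e-06) and 0.42 by total counts (adjusted p = 0.00332).

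No polymerase or primase gene was higher in SEN. Under TMM 5 of 7 were lower (38.5% of all genes) and 2 did not pass the test. With total counts all 7 were lower (56.9% of all genes). Pola1, the catalytic subunit of polymerase alpha, which starts each new strand, was at 24.7, 25.5 and 24.9 CPM in NC, at 9.17, 10.3 and 9.61 in SEN and at 21.3, 16.5 and 16.9 in BNPMT. SEN was lowest without overlap, and BNPMT lay between. Pola1 fell by 0.92 on the log2 scale (SE 0.10, adjusted p = 9.25e-07).

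Pold1, the catalytic subunit of the lagging strand polymerase delta, was at 22.5, 24.7 and 21.6 CPM in NC, at 9.53, 10.9 and 9.47 in SEN and at 17.9, 17.7 and 17.0 in BNPMT. The order of the groups was the same as for Pola1. Its log2 change in SEN was -0.75 ± 0.09 (adjusted p = 2.19e-06). Pole, the leading strand polymerase epsilon, Pola2 and the primase gene Prim1 fell as well, with log2 changes of -0.65, -0.69 and -0.34, while Prim2 and Pole2 were at -0.14 each and were not called. The span of Pole2 overlaps Klhdc1 in GRCr8.

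The sliding clamp gene Pcna rose in SEN, whereas the genes of its loader had no common direction under TMM. Replication factor C loads PCNA onto DNA, and its large subunit Rfc1 was at 43.7, 42.5 and 47.0 CPM in NC, at 14.9, 13.6 and 14.4 in SEN and at 44.0, 39.7 and 40.7 in BNPMT. NC and BNPMT overlapped, and both were far above SEN. Rfc1 fell by 1.18 on the log2 scale (SE 0.07, adjusted p = 2.72e-09), and Rfc2 fell by 0.52 (adjusted p = 2.65e-05). Rfc5 had a change of -0.05 and was not called (adjusted p = 0.621).

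Rfc3 and Rfc4 turned with the scale. Rfc3 was at 19.2, 19.3 and 20.5 CPM in NC, at 18.1, 15.2 and 16.4 in SEN and at 18.2, 21.2 and 22.1 in BNPMT. Its SEN libraries were below NC in CPM, and its log2 change was 0.21 by TMM (adjusted p = 0.0609) and -0.25 by total counts (adjusted p = 0.0237). The TMM change of Rfc3 was called without SEN 2 (adjusted p = 0.0339) or BNPMT 1 (adjusted p = 0.0282), and with DESeq2 size factors, the DESeq2 Wald test, the 1 CPM filter or only NC and SEN in the fit (adjusted p = 0.0202, 0.0162, 0.0301 and 0.0282). Rfc4 was at 20.9, 21.9 and 22.2 CPM in NC, at 20.9, 17.7 and 18.9 in SEN and at 27.3, 31.4 and 30.3 in BNPMT. In CPM BNPMT stood above both other groups. From SEN to BNPMT, Rfc4 changed by 0.12 under TMM, which was not called (adjusted p = 0.189), and by 0.63 with total counts (adjusted p = 6.37e-06). In SEN Rfc4 changed by 0.28 ± 0.09 under TMM (adjusted p = 0.00826, and adjusted p = 0.0541 without SEN 1) and by -0.17 with total counts (adjusted p = 0.0671).

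Lagging strand maturation fell in SEN in both genes. Fen1, the nuclease that trims primer flaps, was at 25.9, 24.7 and 25.1 CPM in NC, at 10.9, 9.20 and 9.70 in SEN and at 19.9, 21.3 and 22.9 in BNPMT. SEN was lowest without overlap. Fen1, whose span overlaps Tmem258 in GRCr8, fell by 0.89 on the log2 scale (SE 0.09, adjusted p = 5.68e-07). Lig1, the ligase that joins the fragments and whose span overlaps Zswim9, had a change of -0.14 ± 0.05 (adjusted p = 0.0297). That call of Lig1 ended without NC 3 (adjusted p = 0.0744) or SEN 2 (adjusted p = 0.0703), and with DESeq2 size factors (adjusted p = 0.183), the DESeq2 Wald test (adjusted p = 0.186) or the 1 CPM filter (adjusted p = 0.0896).

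Nucleotide supply held 3 of 5 genes lower and none higher under TMM, and all 5 were lower with total counts (56.9% of all genes). Tk1, the thymidine kinase of the salvage pathway, was at 75.7, 69.1 and 71.8 CPM in NC, at 26.6, 24.0 and 26.6 in SEN and at 70.8, 73.2 and 69.6 in BNPMT. NC and BNPMT overlapped, and SEN stood far below. Tk1 fell by 1.03 on the log2 scale (SE 0.06, adjusted p = 4.36e-09). Rrm2, the regulated subunit of ribonucleotide reductase, and Dut, which removes dUTP, fell by less, with log2 changes of -0.29 and -0.31 (adjusted p = 0.00349 for Rrm2 and 0.00656 for Dut). The span of Rrm2 overlaps Cys1 in GRCr8.

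Rrm1 and Tyms turned with the scale. Rrm1, the large reductase subunit, was at 114, 113 and 115 CPM in NC, at 82.0, 80.9 and 88.1 in SEN and at 115, 109 and 107 in BNPMT. Tyms, the thymidylate synthase, was at 41.9, 42.8 and 39.6 CPM in NC, at 28.3, 34.1 and 30.1 in SEN and at 56.8, 45.8 and 50.9 in BNPMT. Both were lower in every SEN library than in any NC library by CPM. By TMM their log2 changes were 0.01 (adjusted p = 0.899) and 0.03 (adjusted p = 0.792). By total counts they were -0.44 (adjusted p = 4.16e-06) and -0.43 (adjusted p = 0.000486).

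Of the 4 chromatin genes Slbp was higher in SEN under TMM, Uhrf1 and Chaf1b were lower, and Chaf1a lay close to the threshold. Uhrf1, which reads half-methylated DNA behind the fork and brings in the maintenance methyltransferase, was at 54.8, 51.3 and 54.0 CPM in NC, at 18.3, 17.2 and 15.3 in SEN and at 34.2, 27.2 and 27.0 in BNPMT. The groups did not overlap, and SEN was lowest. Uhrf1, whose span overlaps Arrdc5, had a log2 change in SEN of -1.20 ± 0.09 by TMM (adjusted p = 4.53e-08) and -1.66 by total counts. Chaf1a, the large subunit of the histone chaperone CAF-1, was at 25.5, 25.1 and 27.8 CPM in NC, at 20.3, 21.3 and 23.0 in SEN and at 20.6, 19.2 and 21.8 in BNPMT. SEN and BNPMT overlapped below NC. The change of Chaf1a in SEN turned from 0.17 (adjusted p = 0.0529) to -0.28 with total counts (adjusted p = 0.00428). It was called higher in 7 of 20 alternatives, among them the DESeq2 Wald test (adjusted p = 0.00896), DESeq2 size factors (adjusted p = 0.0131) and the fit without SEN 1 (adjusted p = 0.0451). Chaf1b, the middle subunit, fell (log2 change -0.41, adjusted p = 0.0134), but was not called without SEN 3 (adjusted p = 0.064).

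**Figure D4:**
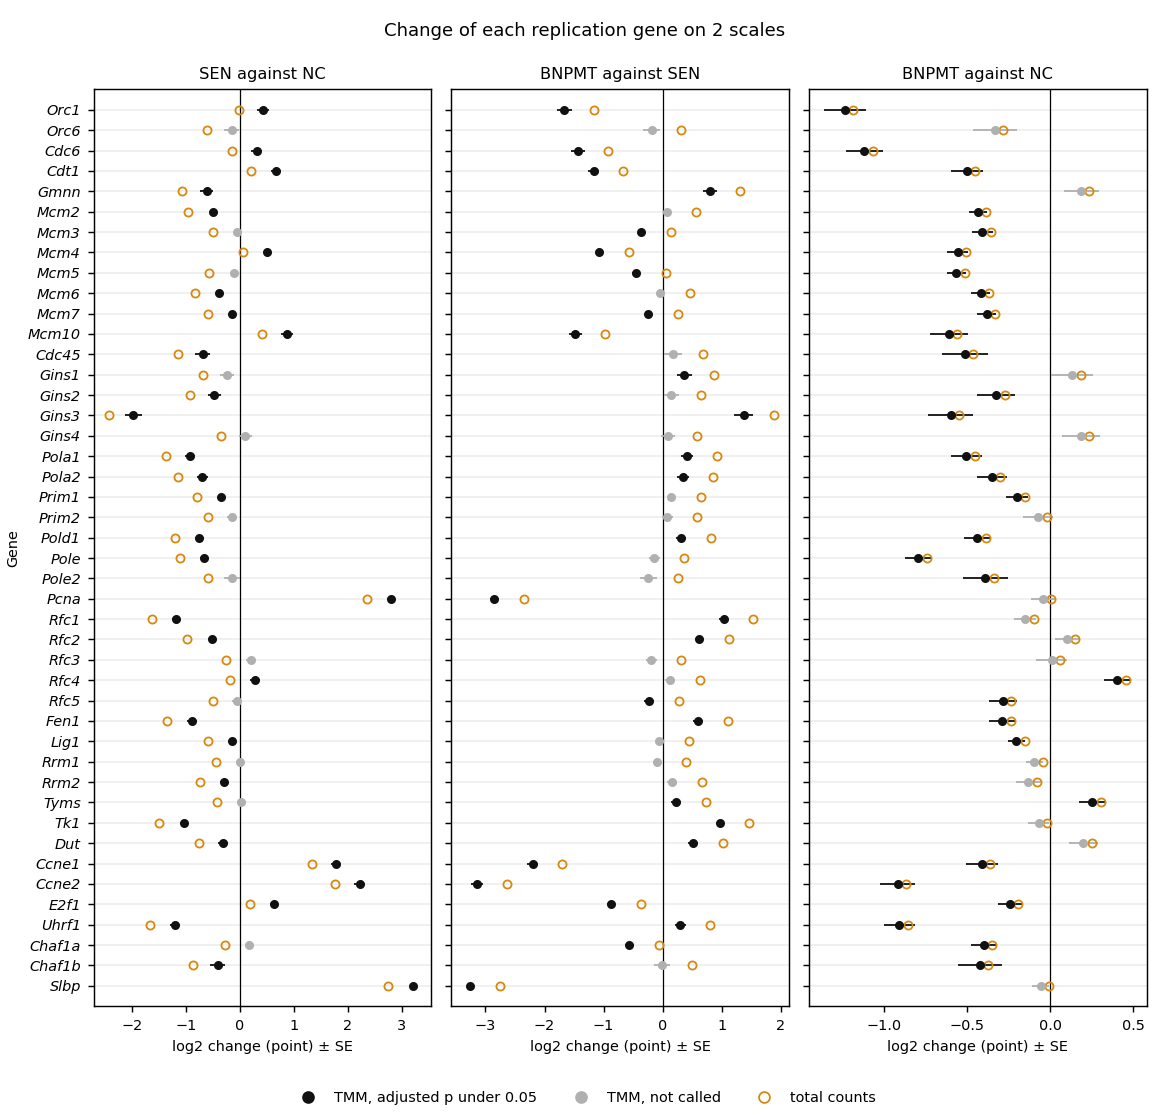
Log2 change of each of the 44 genes (rows) in the 3 comparisons (panels), with TMM scaling (filled points, black where the adjusted p is under 0.05 and grey otherwise, bars of 1 SE) and with total counts (open circles). Open circles lie left of the points in SEN against NC and right of them in BNPMT against SEN, and nearly on them in BNPMT against NC, where 28 of 44 genes are black points left of 0.

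Levels of genes whose products work together were compared within each library as ratios of FPKM, which do not depend on the scale between libraries. Where partners differ in transcript length, a ratio can still carry a library's trend with length. The ratios were not computed with that trend taken out. These ratios were chosen after their values were seen, so they are given without a test. Cdt1 to its inhibitor Gmnn stood at 0.703 ± 0.094 in NC, at 1.70 ± 0.108 in SEN and at 0.437 ± 0.063 in BNPMT (SD, n = 3), without overlap between groups. Mcm4 to the mean of the other MCM genes stood at 1.06 ± 0.014 in NC, at 1.81 ± 0.071 in SEN and at 0.977 ± 0.110 in BNPMT. Pcna to the mean of the 5 clamp loader genes stood at 5.30 ± 0.368 in NC, at 39.5 ± 1.39 in SEN and at 4.86 ± 0.066 in BNPMT.

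These 3 ratios were highest in SEN in every library. Rfc1 to the mean of the other loader genes went the other way, at 0.658 ± 0.022 in NC, 0.284 ± 0.004 in SEN and 0.551 ± 0.067 in BNPMT. Gins3 to the mean of the other GINS genes stood at 0.506 ± 0.026 in NC, at 0.135 ± 0.015 in SEN and at 0.311 ± 0.079 in BNPMT. The ratio of Orc1 to Orc6 stood at 0.355 ± 0.041 in NC, at 0.548 ± 0.136 in SEN and at 0.191 ± 0.023 in BNPMT. For the reductase subunits Rrm1 to Rrm2 stood at 2.31 ± 0.064 in NC, at 2.84 ± 0.078 in SEN and at 2.38 ± 0.204 in BNPMT, and for CAF-1 the ratio of Chaf1a to Chaf1b was 1.37 ± 0.088, 2.08 ± 0.403 and 1.42 ± 0.311.

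**Figure D5:**
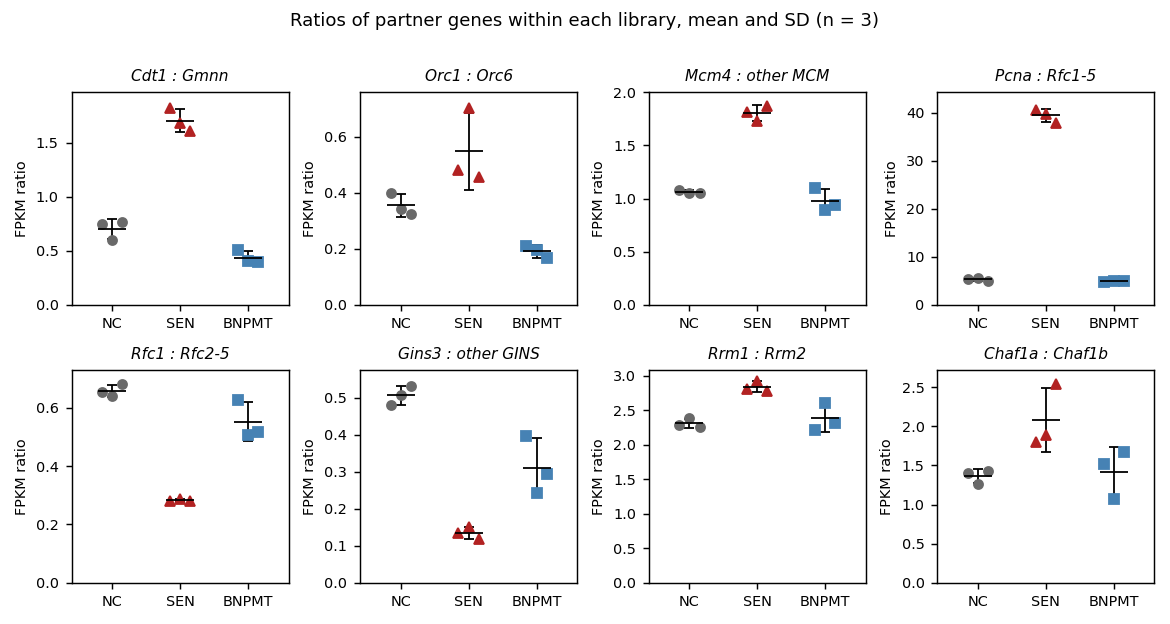
Ratio of FPKM between partner genes within each library (symbols) with the mean and SD of 3 libraries (lines), each panel with its own linear axis from 0. The SEN libraries lie apart from both other groups in all 8 panels, above them in 6 and below them for Rfc1 and for Gins3.

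BNPMT against SEN shares its SEN libraries with the comparison above, so its values are set beside those and are no independent evidence of them. Under TMM 13 of 44 genes were higher in BNPMT than in SEN, 15 were lower and 16 did not pass the test, where 40.7% of all genes were higher and 39.9% lower. With total counts 31 were higher and 10 lower (57.3% and 25.8% of all genes). On both scales 13 were higher and 10 lower (40.7% and 25.8% of all genes). The 10 lower genes were Orc1, Cdc6, Cdt1, Mcm4, Mcm10, Pcna, Ccne1, Ccne2, E2f1 and Slbp.

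The largest differences were again in Slbp, with a log2 change of -3.27 ± 0.05 (adjusted p = 5.3e-15), Ccne2, with -3.14 ± 0.10 (adjusted p = 5.32e-12), Pcna, with -2.85 ± 0.08 (adjusted p = 5.32e-13), and Ccne1, with -2.20 ± 0.09 (adjusted p = 8.4e-11). The licensing genes Orc1 and Cdc6 had changes of -1.67 ± 0.12 (adjusted p = 2.52e-08) and -1.43 ± 0.11 (adjusted p = 4.39e-08). Among the 13 higher genes were Gins3 at 1.37 ± 0.17 (adjusted p = 3.5e-06), Rfc1 at 1.03 ± 0.07 (adjusted p = 9.55e-09), Tk1 at 0.96 ± 0.06 (adjusted p = 7.77e-09) and Gmnn at 0.80 ± 0.11 (adjusted p = 1.83e-05). All 3 genes of S phase entry were lower. Of the 7 polymerase and primase genes 3 were higher under TMM (Pola1, Pola2 and Pold1) and 6 with total counts. Pole was not called at -0.14 (adjusted p = 0.144), but was lower with DESeq2 size factors (adjusted p = 0.04), with the DESeq2 Wald test (adjusted p = 0.0429) and when SEN 1 and BNPMT 1 were left out (-0.23, adjusted p = 0.028). Chaf1a was lower under TMM (-0.57, adjusted p = 9.67e-06) and not called with total counts (-0.07, adjusted p = 0.432).

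For 12 genes the direction between BNPMT and SEN turned with the scale, among them 4 MCM genes. The Mcm5 change was -0.45 ± 0.06 by TMM (adjusted p = 8.13e-06) and 0.05 by total counts (adjusted p = 0.459), although Mcm5 libraries overlapped in CPM, at 39.7, 42.0 and 38.3 in SEN and 41.9, 39.4 and 42.9 in BNPMT. Calls of Gins1 and Tyms (higher) and of Rfc5 (lower) ended under several alternatives. Gins1 was not called without SEN 3 (adjusted p = 0.0747) or BNPMT 3 (adjusted p = 0.117), with DESeq2 size factors (adjusted p = 0.0519) or with the DESeq2 Wald test (adjusted p = 0.0563). Tyms was not called without SEN 1 (adjusted p = 0.0788), SEN 3 (adjusted p = 0.0607), BNPMT 1 (adjusted p = 0.0578) or both SEN 1 and BNPMT 1 (adjusted p = 0.179), with DESeq2 size factors (adjusted p = 0.0863) or with the DESeq2 Wald test (adjusted p = 0.0979). The adjusted p of Rfc5 was 0.13 without SEN 3, 0.0656 without BNPMT 1, 0.0739 without BNPMT 3, 0.125 with no filter on low counts and 0.0524 after removal of the length trend, and that of Uhrf1 (log2 change 0.30) was 0.0547 without SEN 3. Omissions of 1 library also added calls, namely Orc6 lower without SEN 2 (adjusted p = 0.0294), Rfc3 lower without SEN 2 or BNPMT 3 (up to 0.048), Prim1 and Rfc4 higher without SEN 1 or BNPMT 1 (up to 0.0324 and 0.0492), Cdc45 higher without BNPMT 1 (0.0409) and Rrm2 higher without SEN 3 or BNPMT 2 (up to 0.0405). With DESeq2 size factors and with the DESeq2 Wald test Rrm1 (adjusted p = 0.00988 and 0.003), Rfc3 (0.0195 and 0.0159) and Lig1 (0.035 and 0.0241) were called lower.

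BNPMT against NC asks how cells given both doxorubicin and the intervention differ from cells taken as untreated. No group had the intervention alone, so its part and that of doxorubicin cannot be told apart in this comparison. The TMM and total count scales lay closest here. The replication genes were mostly lower in BNPMT. Under TMM 28 of 44 were lower and 2 were higher, and 14 did not pass the test, where 26.5% of all genes were lower and 26.3% higher. The median log2 change was -0.34 for the 44 genes and 0.00 for all genes. With total counts 25 were lower and 3 higher (22.5% and 30.2% of all genes), and on both scales 25 were lower (56.8%, against 22.5% of all genes) and 2 higher (4.55%, against 26.3%). In CPM no BNPMT library reached the lowest NC library in any MCM gene. The share of all genes with such a gap was not computed, so this describes levels only.

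By role, all 6 MCM genes were lower in BNPMT than in NC, as were 6 of 7 polymerase and primase genes, 3 of 3 genes of S phase entry, both genes of lagging strand maturation, 4 of 6 helicase activators, 3 of 5 licensing factors and 3 of 4 chromatin genes. Of the 5 nucleotide supply genes none was lower under TMM and Tyms was higher. When SEN 1 and BNPMT 1 were left out, however, Rrm1 (-0.12, adjusted p = 0.025) and Rrm2 (-0.21, adjusted p = 0.00662) were called lower, Rrm1 also after removal of the length trend (adjusted p = 0.0445), and Dut was called higher with total counts (0.25, adjusted p = 0.0244). In the clamp and loader group Rfc5 was lower, Rfc4 higher and 4 did not pass the test. The MCM changes lay close together, from -0.38 ± 0.06 for Mcm7 (adjusted p = 0.000111) to -0.56 ± 0.06 for Mcm5 (adjusted p = 7.09e-06).

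The licensing genes Orc1 and Cdc6 had the largest differences. Licensing factors did not share them: Cdt1 changed by -0.50 (adjusted p = 0.000741). Orc6 (-0.33, adjusted p = 0.052) and Gmnn (0.19, adjusted p = 0.156) did not pass the test. Orc1, whose library values stand above, averaged 8.39 ± 0.923 CPM in NC and 3.69 ± 0.404 in BNPMT, a log2 change of -1.24 ± 0.12 (adjusted p = 5.13e-06), and Cdc6 averaged 12.0 ± 0.832 and 5.71 ± 0.771 CPM, a change of -1.12 ± 0.11 (adjusted p = 4.91e-06). Next were Ccne2 at -0.92 ± 0.10 (adjusted p = 1.34e-05), Uhrf1 at -0.91 ± 0.09 (adjusted p = 4.94e-06) and Pole at -0.79 ± 0.08 (adjusted p = 6.22e-06). Per transcript length Orc1 was the lowest of the 44 genes in BNPMT, at 1.09 ± 0.12 FPKM.

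The 2 higher genes had smaller changes. Rfc4 rose by 0.40 ± 0.08 (adjusted p = 0.00117) and Tyms by 0.25 ± 0.08 (adjusted p = 0.0184). Removing each library's length trend ended the call of Rfc4 (adjusted p = 0.152), and the call of Tyms without NC 3 (adjusted p = 0.0876) or BNPMT 1 (adjusted p = 0.0542). Slbp, Pcna, Rfc1 and Tk1, which had large changes in SEN, had changes from NC of -0.06, -0.04, -0.15 and -0.07 in BNPMT, none of which passed the test (adjusted p = 0.353, 0.64, 0.0729 and 0.362). Once the length trend was removed, Pcna and Slbp were called lower than in NC, with log2 changes of -0.37 (adjusted p = 1.2e-05) and -0.23 (adjusted p = 0.00049). Without BNPMT 1 the gene Rfc1 was called lower (log2 change -0.19, adjusted p = 0.0274).

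Transcript length went with the differences between BNPMT and NC. The Spearman correlation of length with the log2 change was -0.48 across the 44 genes and -0.48 across all genes tested, as a description over genes that share libraries. With each library's trend with length taken out, 31 of the 44 genes were lower and 1 (Tyms) was higher. Without SEN 1 and BNPMT 1 the number higher was 5, namely Rfc4, Tyms, Gmnn, Gins4 and Dut, and without BNPMT 1 alone it was 4 (Gmnn, adjusted p = 0.0331, Gins4, adjusted p = 0.0203, and Dut, adjusted p = 0.00573, but not Tyms). Without NC 3 it was 1. Smaller calls hung on single libraries. Those lost were Pole2 without NC 1, NC 3, BNPMT 1 or BNPMT 2 (adjusted p up to 0.138), Gins2 without NC 2, NC 3, BNPMT 2 or BNPMT 3 (up to 0.129), Prim1 without NC 2, NC 3, BNPMT 1 or BNPMT 3 (up to 0.0818), Chaf1b without NC 2 or BNPMT 3 (up to 0.0736), Rfc5 without NC 1 (0.074) and E2f1 without NC 3 (0.0528). The call of E2f1, at -0.24 on the log2 scale, also ended after removal of the length trend (-0.05, adjusted p = 0.662), which left 2 of 3 genes of S phase entry lower, and with limma on log2(FPKM + 1) and log2(FPKM + 0.1) (adjusted p = 0.0521 and 0.0541). Total counts ended the calls of Gins2 (adjusted p = 0.061), Prim1 (adjusted p = 0.0742) and Pole2 (adjusted p = 0.0531). Both limma alternatives ended those of Gins2 and Prim1 (up to 0.0929 and 0.0664), the length trend that of Gins2 (0.156), and the fit without SEN 1 and BNPMT 1 that of Pole2 (0.0706). Calls gained were Orc6, lower without SEN 1 (adjusted p = 0.0481), SEN 2 (adjusted p = 0.02) or BNPMT 2 (adjusted p = 0.0431), and Rrm2, lower without BNPMT 1 (adjusted p = 0.0161). In all, Orc6 was called lower in 8 of the 20 alternatives. Among them was removal of the length trend (-0.60, adjusted p = 0.000587).

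Other genes of the pathway, outside the 44, were counted from 3 lists. Of 40 other replication fork and origin genes 6 were higher and 20 lower in SEN than in NC under TMM (2 and 34 with total counts), and 4 were higher and 22 lower in BNPMT than in NC (6 and 20 with total counts). The shares over all genes, against which these and the next counts are to be read, were 37.6% higher and 38.5% lower in SEN (24.5% and 56.9% with total counts) and 26.3% higher and 26.5% lower in BNPMT (30.2% and 22.5% with total counts). Named below are the genes of each list with the smallest adjusted p in each direction of SEN against NC. Nasp, a histone chaperone gene, rose from 65.0 ± 2.79 CPM in NC to 392 ± 11.1 in SEN, a log2 change of 3.04 ± 0.06 (adjusted p = 3.74e-14), and stood at 60.0 ± 2.02 in BNPMT. Mcm8, an MCM relative that acts in repair, rose from 3.35 ± 0.61 to 4.91 ± 0.644 CPM (adjusted p = 5.96e-05). Dnmt1, the maintenance methyltransferase, fell from 102 ± 2.14 CPM in NC to 39.7 ± 1.05 in SEN, a log2 change of -0.91 (adjusted p = 1.12e-08), and Cdca7 had a change of -1.28 (adjusted p = 1.68e-08).

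Of 18 other nucleotide supply genes 6 were higher and 7 lower in SEN (4 and 11 with total counts), close to the 37.6% and 38.5% of all genes, and 3 were higher and 6 lower in BNPMT than in NC (4 and 6 with total counts). Impdh2, of guanine nucleotide synthesis, rose from 229 ± 8.77 to 417 ± 15.6 CPM in SEN (log2 change 1.32 ± 0.06, adjusted p = 1.19e-10), and Samhd1, which degrades deoxynucleotides, rose from 3.27 ± 0.501 to 12.3 ± 0.287 CPM (2.36 ± 0.14, adjusted p = 2.7e-09). Tk2, the mitochondrial thymidine kinase, fell from 12.9 ± 0.734 to 1.82 ± 0.501 CPM (-2.38 ± 0.15, adjusted p = 3.54e-09), and Cad, of pyrimidine synthesis, from 126 ± 4.87 to 36.3 ± 3.03 CPM (-1.34 ± 0.08, adjusted p = 2.19e-09).

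Of 25 E2F, RB and S phase kinase genes 9 were higher and 9 lower in SEN than in NC (3 and 18 with total counts), again close to the shares over all genes under TMM, and 1 was higher and 16 lower in BNPMT than in NC (1 and 14 with total counts), where 26.3% and 26.5% of all genes were. Lin54, a DNA-binding subunit of the complex that represses cell cycle genes in resting cells, rose by 1.13 ± 0.09 on the log2 scale (adjusted p = 3.38e-08), and the retinoblastoma gene Rb1 by 1.10 ± 0.10 (adjusted p = 2.89e-07). Skp2, a ubiquitin ligase subunit that promotes S phase, fell from 17.4 ± 1.60 to 5.07 ± 0.692 CPM (-1.33 ± 0.11, adjusted p = 8.51e-08), and the repressor gene E2f6 from 53.9 ± 0.837 to 23.7 ± 0.384 CPM (-0.73 ± 0.06, adjusted p = 5.21e-08). By total counts the changes in SEN were 0.68 for Lin54, 0.65 for Rb1 and -1.18 for E2f6, and in the lists above they were 0.87 for Impdh2 and 0.55 for Mcm8. In these 3 lists, as among the 44 genes, the counts of SEN against NC moved with the scale far more than those of BNPMT against NC.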

How the data were processed

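The authors deposited whole-number counts per gene and FPKM values. The submitters' processing notes name the build mRatBN7.2 and the tools fastp, HISAT2 and HTSeq without versions. Which annotation was used, and whether strand was, is not given in the sources used here. The deposited FPKM values equal the count over transcript length and library total (largest relative spread of the implied length 9.01e-16). FPKM served for levels per length, ratios and 2 alternatives.

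The test on counts was that of edgeR 4.0.16 under R 4.3.3 (filterByExpr, TMM, quasi-likelihood F test, 3 groups of 3 libraries in one layout without a replicate term, Benjamini-Hochberg over 14956 genes). Alternatives, 20 in all, were DESeq2 size factors, total counts, the Wald test of DESeq2 1.42.0, other filters, 2 groups alone, a replicate block, limma 3.58.1 on log2(FPKM + 1) and log2(FPKM + 0.1), a loess curve on length, and omissions of libraries. The members and lists were chosen with earlier results of these data known, and so have no test of their own. Values in every library are given for the strongest 6 higher and 8 lower members of SEN against NC, the strongest 3 per direction of BNPMT against NC, and members whose direction in SEN against NC turned with the scale. Other members with such values (Mcm5, for example) and the ratios were picked after values were seen. No pair of libraries was a duplicate (chi-square per degree of freedom 3.41 to 31.6 within groups). Intervals are standard errors or SDs over libraries.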

Additional observations from a re-analysis of the deposited data

How the results depend on the processing

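Over 20 alternatives 24 of the 44 genes kept their call, or lack of one, in SEN against NC, 21 in BNPMT against SEN and 25 in BNPMT against NC. A change of sign with no call in either fit counts here as kept, such as that of Pole2 in BNPMT against SEN. Total counts and both FPKM alternatives do not use TMM factors. With total counts, limma on log2(FPKM + 1) and limma on log2(FPKM + 0.1), the members called in SEN against NC were 6, 7 and 7 higher and 33, 34 and 34 lower, and those called higher in BNPMT against SEN were 31, 31 and 31. Over all genes, 3667, 3651 and 3673 were higher in SEN than in NC, and 3857, 3782 and 3829 lower in BNPMT than in SEN. With the length trend taken out 20 members were higher in BNPMT than in SEN. Members higher in BNPMT than in NC were 4 under both FPKM alternatives, 1 with the length trend taken out and 5 without SEN 1 and BNPMT 1, and between 1 (without NC 3) and 4 (without BNPMT 1) when 1 library was left out. In SEN against NC the log2 changes of Orc1, Cdc6, Gins4, Rfc3, Rfc4, Rrm1, Tyms and Chaf1a turned sign, to -0.0199, -0.14, -0.35, -0.25, -0.17, -0.44, -0.43 and -0.28 with total counts, to -0.0123, -0.11, -0.32, -0.23, -0.16, -0.43, -0.38 and -0.25 with limma on log2(FPKM + 1), and to -0.0154, -0.13, -0.35, -0.25, -0.17, -0.44, -0.42 and -0.28 with limma on log2(FPKM + 0.1). In BNPMT against SEN the log2 changes of Orc6, Mcm3, Mcm5, Mcm6, Mcm7, Pole, Rfc3, Rfc5, Lig1, Rrm1 and Chaf1b turned sign, to 0.32, 0.14, 0.0494, 0.46, 0.26, 0.36, 0.30, 0.27, 0.44, 0.40 and 0.49 with total counts, to 0.28, 0.13, 0.0452, 0.44, 0.24, 0.23, 0.29, 0.24, 0.41, 0.39 and 0.38 with limma on log2(FPKM + 1), and to 0.33, 0.14, 0.0483, 0.46, 0.26, 0.34, 0.30, 0.27, 0.43, 0.40 and 0.48 with limma on log2(FPKM + 0.1). With the length trend taken out the changes of Gins4, Rfc4 and Rrm1 in SEN against NC were -0.27, -0.0495 and -0.13, those of Pole and Lig1 in BNPMT against SEN 0.33 and 0.12, and that of Rfc3 in BNPMT against NC -0.30. Another 48 sign changes were of members without a call on either side. Beyond the construction of each scale, the cause was not tested.

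The labels do not say whether libraries of the same number belong together. Deviations of same-numbered libraries from their group means correlated at -0.24 to 0.058, and libraries did not all correlate best with their own number. With 3 libraries a group, such correlations cannot decide whether the libraries are paired. With the replicate block 12 members were higher and 19 lower in SEN against NC, 13 and 15 in BNPMT against SEN, and 2 and 26 in BNPMT against NC. Its adjusted p was 0.0801 for Mcm7, 0.058 for Lig1 and 0.0449 for Chaf1a in SEN against NC, and 0.0547 for Gins2 and 0.0548 for Prim1 in BNPMT against NC. It changed no other call of a member. Groups of 3 libraries limit the precision, and no group is large enough for a check on single outlying libraries.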
